A study of Mus musculus with 6 samples.

Results

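Most miRNAs are cut out of a long primary transcript by the nuclear enzyme Drosha and are then trimmed by Dicer in the cytoplasm. A few reach Dicer without Drosha. The hairpins of miR-320 and miR-484 are transcribed directly as short RNAs that carry the cap of RNA polymerase II at their 5′ end, and mirtrons such as miR-877 and miR-702 are whole introns or parts of introns that splicing releases and that fold into a hairpin. The 5 rows described here are mmu-miR-320-3p, mmu-miR-484, mmu-miR-877-5p, mmu-miR-877-3p and mmu-miR-702-3p. They were chosen by name for this shared route and not for their counts, though earlier results of these data were known. These members are 5 of 1982 rows in the table. Of the 1982 rows, 954 had a count in at least 1 mouse and 259 had enough counts to be tested.

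Small RNA was sequenced from exosomes, the small vesicles pelleted from serum, of 6 male C57BL/6 mice aged 3 months. Acu/LFES mice 4, 5 and 6 were given low-frequency electrical stimulation of the hindlimb through acupuncture needles for 30 min in a single session. In sham mice 1, 2 and 3 the current stayed off and the needles sat beside the points used in the treated mice. No allele or drug differed between the groups. The question was whether stimulation changed the miRNA cargo of the vesicles. The counts alone cannot tell fewer vesicles from fewer copies in each vesicle. With a NanoSight instrument the paper measured a higher concentration of serum exosomes after Acu/LFES.

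The 6 libraries held between 391708 and 1504137 counts. One library stood apart: in Acu/LFES mouse 6 the miR-486 rows (a-5p and b-5p, identical in counts and abundant in red cells) took 29.2% of the counts, against 61.7% to 74.0% in the other mice. Both rows enter the totals, so these shares and all shares of counts below include that same count once for each row. Levels are given as normalized CPM (counts per 1000000), for which each total was first multiplied by a TMM factor taken from the bulk of the miRNAs. That factor ranged from 0.65 to 2.12 and was highest in mouse 6. Mice were the replicates, and the counting intervals given below cover counting error only, because no source names molecular identifiers that would tell PCR copies apart.

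The mature sequences show what the counts rest on and how the mirtrons relate to their introns. RefSeq on GRCm38.p6 gave sequences for 4 of the 5 members. They are written 5′ to 3′ with the seed, bases 2 to 8, in capitals, since the seed decides most target pairing.
mmu-miR-484: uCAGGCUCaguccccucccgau
mmu-miR-877-5p: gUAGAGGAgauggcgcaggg
mmu-miR-877-3p: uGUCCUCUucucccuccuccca
mmu-miR-702-3p: uGCCCACCcuuuaccccgcucc

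No 2 of these 4 share a seed, and 0 of the other table rows among 1623 with a RefSeq sequence carried any of the seeds. Nor was any other row close to them over its whole length. Compared without gaps, the closest other mature sequence differed at 7 bases for miR-484, at 6 for miR-877-5p, at 5 for miR-877-3p and at 7 for miR-702-3p, so no row lay within 3 mismatches. The share of G and C ran from 59.1% in miR-877-3p to 68.2% in miR-702-3p. Of the 1623 sequences, 68.8% had a lower share than miR-877-3p and 91.9% a lower share than miR-702-3p. The arms differ in kind. The bases of miR-877-3p were 54.5% C and 90.9% pyrimidine and those of miR-702-3p 59.1% C, whereas miR-877-5p, from the facing side of the same stem, was 55.0% G.

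In the GENCODE M21 annotation of GRCm38, Mir877 lies at chr17:35960730-35960814 on the minus strand and fills an intron of Abcf1, a gene of the ATP-binding cassette family, from its first base to its last, 85 bases in all. miR-877-5p begins at the first base of that intron, with the GU of the splice donor, and miR-877-3p stops 1 base before its end. Mir702 lies at chr5:136991433-136991541 on the plus strand in Plod3, which encodes a lysyl hydroxylase of collagen. Its annotated hairpin starts 9 bases inside the upstream exon, the intron runs over 102 bases from 136991442 to 136991543, and miR-702-3p ends 2 bases before the last one. Mir320 lies at chr14:70443510-70443591 on the plus strand, in no other annotated gene and 62 bases away from the start of Polr3d, a subunit gene of RNA polymerase III on the opposite strand. Mir484 lies at chr16:14159626-14159692 on the plus strand, opposite to Marf1, with 19 of its 67 bases over 1 annotated exon of that gene and the rest over an intron.

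The products of the capped hairpins were readily counted and those of the mirtrons were scarce, with at most 37 counts per row and library. Together the 5 rows took 0.953%, 0.609% and 0.730% of all counts in sham mice 1, 2 and 3 and 0.821%, 0.613% and 1.85% in Acu/LFES mice 4, 5 and 6. The exact binomial 95% interval was 0.590% to 0.628% in mouse 2, the lowest, and 1.81% to 1.89% in mouse 6, the highest. miR-320-3p alone supplied between 82.9% and 94.6% of the members' counts in each mouse. It stood at rank 13 to 16 among the miRNAs of every library, and miR-484 stood at rank 46 to 71.

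The share of counts did not separate the groups, with 0.764% ± 0.175 for sham and 1.09% ± 0.662 for stimulated mice (SD, n = 3 per group; two-sided exact permutation test, p = 0.6, where 3 mice against 3 cannot go below 0.1). Most of the gap came from mouse 6. Without it the difference was -0.0468 percentage points, and with both miR-486 rows dropped from the denominator it was -0.0935.

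Of the 5 members, 3 passed edgeR's filter on low counts, namely miR-320-3p, miR-484 and miR-877-3p. In edgeR's quasi-likelihood test between Acu/LFES and sham mice, 0 of these 3 had an adjusted p under 0.05, as for 0% of all 259 miRNAs tested, and 0 of 3 had an unadjusted p under 0.05, against 8.88% of all tested. With the Wald test of DESeq2, 0 of the 3 had an unadjusted p under 0.05, against 11.2% of all tested. The normalized levels of the groups overlapped for all 3, while they did not overlap for 17% of the miRNAs tested. None of these 3 therefore had a change that the tests separated from the spread between mice.

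**Figure D1:**
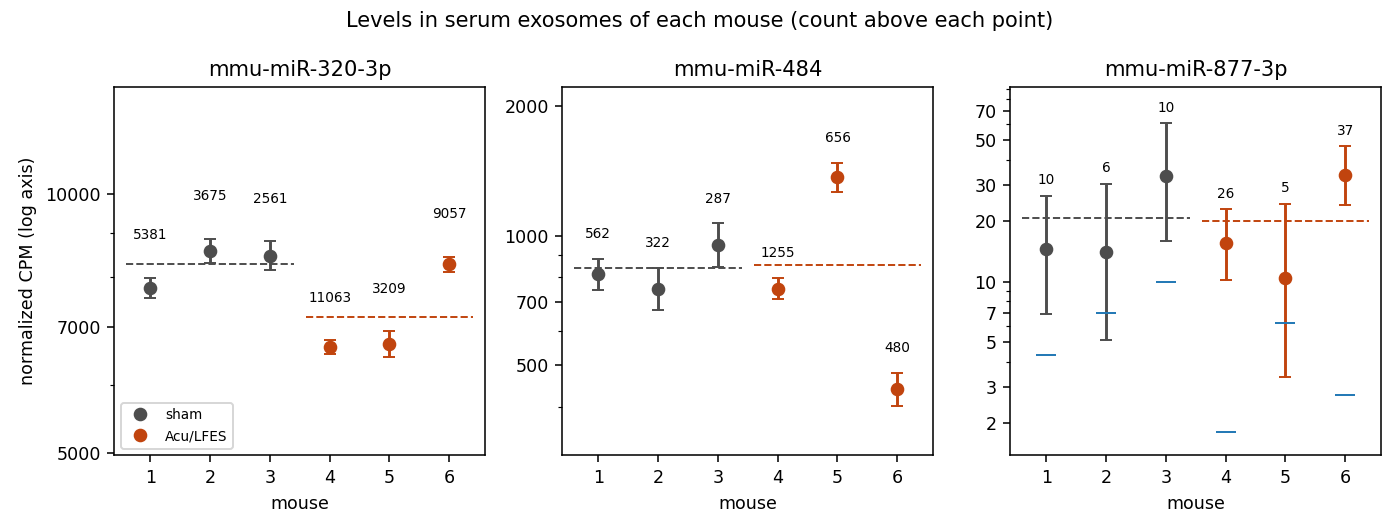
Normalized CPM (log axes) of the 3 members with enough counts to be tested, by mouse, with Poisson 95% counting intervals as bars, the raw count above each point, the group mean as a dashed line and, for miR-877-3p, the level of 3 counts as a blue dash. miR-320-3p stayed between 6635 and 8591 CPM, miR-484 spread from 439 to 1367 CPM within the Acu/LFES mice, and miR-877-3p rested on 5 to 37 counts.

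miR-320-3p, the strand of the capped miR-320 hairpin that is loaded into Argonaute, was counted 5381, 3675 and 2561 times after sham treatment and 11063, 3209 and 9057 times after Acu/LFES. These are 7773, 8591 and 8480 normalized CPM for sham and 6635, 6686 and 8282 normalized CPM for stimulated mice. Acu/LFES mice 4 and 5 lay below every sham mouse, while mouse 6 lay among them. The means were 8281 ± 443 CPM and 7201 ± 937 CPM, respectively (SD, n = 3 per group). The log2 fold change of Acu/LFES over sham was -0.20 (standard error 0.22, adjusted p = 0.799 in edgeR's quasi-likelihood test), with a 95% interval from -0.69 to 0.29. Scaled to total counts alone, the direction turned, to 0.53, while the median of all tested miRNAs moved from 0.050 to 0.71.

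miR-484, the product of the other capped hairpin, was counted 562, 322 and 287 times after sham treatment and 1255, 656 and 480 times after Acu/LFES. In normalized CPM the sham mice were close to each other, at 812, 753 and 950. The Acu/LFES mice were not, at 753 in mouse 4, 1367 in mouse 5 and 439 in mouse 6, so that treated mice were both the highest and the lowest of all. The Poisson intervals, which take the TMM factors as exact, ran from 1264 to 1476 CPM in mouse 5 and from 401 to 480 CPM in mouse 6. As shares of all counts the exact binomial intervals of these mice overlapped, at 0.0961% to 0.112% and 0.0847% to 0.101%. The gap was present, however, in ratios of counts to miR-16-5p and to miR-103-3p within the same library. To miR-16-5p the ratio was 0.213 in mouse 5 and 0.0535 in mouse 6, and to miR-103-3p it was 2.23 and 0.677. Against miR-103-3p the sham mice ran from 0.549 to 1.76, so mouse 6 lay among them. The gap depended on the miRNA chosen. miR-486a-5p was counted 231963 times in mouse 5 and 75441 times in mouse 6, so against it miR-484 was higher in mouse 6. The means were close, 838 ± 101 CPM for sham and 853 ± 472 CPM for stimulated mice (SD, n = 3 per group). The log2 fold change was 0.022 (standard error 0.38, adjusted p = 0.992 in edgeR's quasi-likelihood test), with a 95% interval from -0.82 to 0.86. Single libraries decided its sign and size, as it was -0.45 without mouse 5, -0.063 without sham mouse 2 and 0.37 without mouse 6.

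The spread between mice differed in rank among the miRNAs tested. On log2 CPM plus a pseudocount of 0.5, the SD of miR-320-3p was 0.078 in sham and 0.18 in Acu/LFES mice, below the medians over all miRNAs tested of 0.67 and 0.53. A lower SD was seen in 3.47% of the tested miRNAs in sham and in 9.65% in Acu/LFES mice. The tested miRNAs include many with far fewer counts than miR-320-3p, and no comparison at matched counts was made. For miR-484 the SD was 0.17 in sham mice, with 10.8% of miRNAs lower, and 0.82 in Acu/LFES mice, with 73.7% lower. Per total count the order of the groups turned round for miR-484, to SDs of 0.45 in sham and 0.16 in Acu/LFES mice. For miR-320-3p that order stayed, with SDs of 0.32 in sham and 0.92 in Acu/LFES mice. These spreads were noticed after the values were seen and describe 3 mice in each group, with no test.

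**Figure D2:**
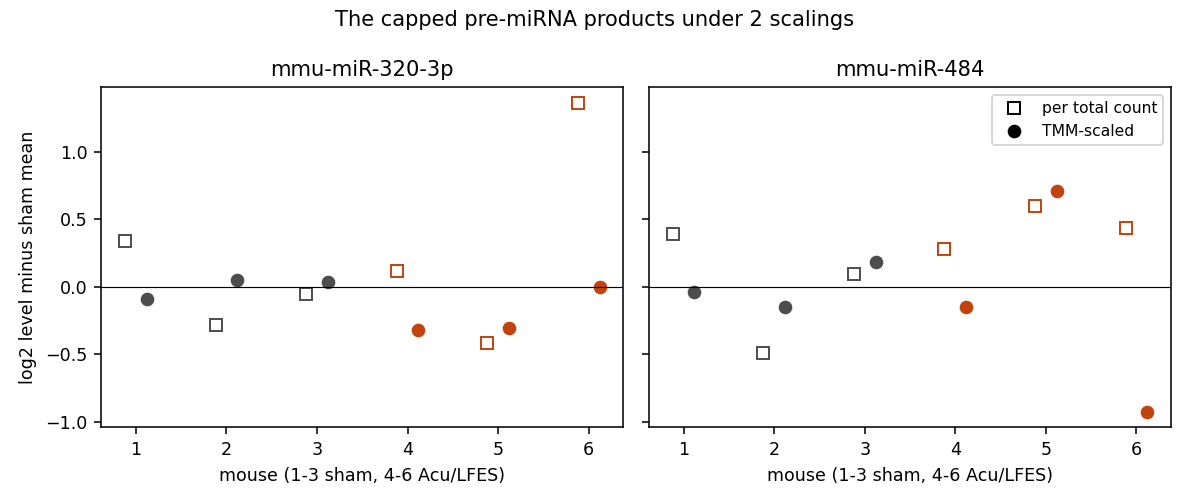
Log2 level of miR-320-3p and miR-484 in each mouse minus the mean of the sham mice, per total count (open squares) and TMM-scaled (filled circles), with sham mice in grey and Acu/LFES mice in orange. In mouse 6 miR-320-3p stood at 1.36 per total count and at 0.0015 after TMM scaling, while miR-484 stood at 0.44 and at -0.93.

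Which of these products looked steady depended on the scaling. As a percent of all counts, miR-320-3p took 0.861%, 0.558% and 0.654% under sham treatment and 0.736%, 0.508% and 1.75% under stimulation. miR-484 took 0.0899%, 0.0489% and 0.0733% under sham treatment and 0.0834%, 0.104% and 0.0928% under stimulation. Over the 6 mice, the highest level of miR-320-3p was 1.29 times the lowest with TMM scaling and 3.44 times with total counts. For miR-484 the order was the other way round, 3.11 times with TMM scaling and 2.13 times with total counts. Under both scalings the groups overlapped for both miRNAs.

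A ratio of counts within a library needs no scaling. Sham mice 1, 2 and 3 had 9.57, 11.4 and 8.92 counts of miR-320-3p for each count of miR-484, and Acu/LFES mice 4, 5 and 6 had 8.82, 4.89 and 18.9. The sham mice and mouse 4 kept nearly the same proportion, and mice 5 and 6 lay on either side of it. On the log2 scale the ratio was 3.31 ± 0.18 for sham and 3.22 ± 0.98 for stimulated mice (SD, n = 3 per group; two-sided exact permutation test, p = 0.8). The difference between the groups, -0.087, became 0.38 without mouse 5, -0.59 without mouse 6 and 0.014 without sham mouse 2. The products of these capped hairpins thus kept no fixed proportion across the Acu/LFES mice.

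**Figure D3:**
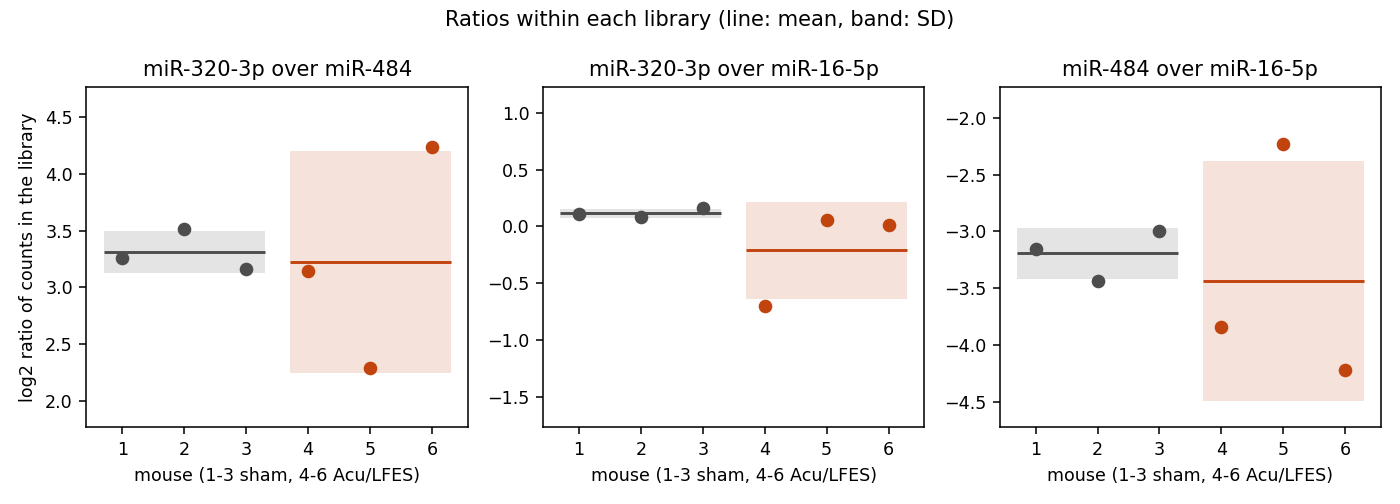
Log2 ratios of counts within each library, with the group mean as a line and the SD as a band, all panels spanning the same range on the y axis. Mice 5 and 6 lie on opposite sides of the sham mice for miR-320-3p over miR-484 and for miR-484 over miR-16-5p, while miR-320-3p over miR-16-5p is lower in mouse 4 than in any other mouse.

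miR-16-5p, a Drosha-dependent miRNA often used as a reference in serum, was counted 4997, 3478 and 2290 times after sham treatment and 18034, 3077 and 8978 times after Acu/LFES. The ratio of miR-320-3p to miR-16-5p was 1.08, 1.06 and 1.12 in sham mice against 0.613, 1.04 and 1.01 in mice 4, 5 and 6. Every Acu/LFES mouse was thus below every sham mouse, but mice 5 and 6 only just. The mean log2 ratio was 0.12 ± 0.042 for sham and -0.21 ± 0.43 for stimulated mice (SD, n = 3 per group; exact permutation, two-sided p = 0.1, the lowest it can give, and 0.6 adjusted over the 6 ratios and shares compared). Groups that did not overlap in this ratio were found for 12.4% of the 210 tested miRNAs without a count of 0. The difference of -0.33 rested largely on mouse 4, and it was -0.079 without that mouse. In mouse 4 miR-16-5p was at 10816 CPM against 7219 to 8130 CPM in the sham mice. miR-320-3p was at 6635 CPM there, its lowest level in the 6 mice, against 7773 to 8591 CPM in the sham mice. Against miR-103-3p, the serum reference of the study's qPCR, the difference of miR-320-3p was -0.078 (exact permutation, two-sided p = 1.0).

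The ratio of miR-484 to miR-16-5p was 0.112, 0.0926 and 0.125 for sham mice against 0.0696, 0.213 and 0.0535 for mice 4, 5 and 6. Again treated mice were highest and lowest. The difference in mean log2 ratio was -0.24 (two-sided exact permutation test, p = 0.8). With miR-103-3p as the reference it was 0.0090, and with the geometric mean it was -0.14.

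The mirtron miR-877 was seen mainly through its 3p arm, except in sham mouse 2, with 6 counts of the 3p and 8 of the 5p arm. miR-877-3p was detected in all 6 mice, with 10, 6 and 10 counts after sham treatment and 26, 5 and 37 after Acu/LFES. Normalized, these were 14.4, 14.0 and 33.1 CPM for sham and 15.6, 10.4 and 33.8 CPM for stimulated mice, so that sham mouse 3 and Acu/LFES mouse 6 were high and the groups overlapped. The Poisson interval of mouse 5 ran from 3.38 to 24.3 CPM, on 5 counts. The log2 fold change was 0.0011 (standard error 0.89, adjusted p = 0.999 in edgeR's quasi-likelihood test), with a 95% interval from -1.99 to 1.99. Scaled to total counts, the fold change of miR-877-3p was 0.93.

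miR-877-5p, from the arm next to the splice donor, was counted 0, 8 and 1 times after sham treatment and 5, 0 and 0 times after Acu/LFES, that is 9 and 5 counts per group against 26 and 68 for the 3p arm. A miRNA with 3 counts, taken as the floor of detection, stood between 1.80 and 9.93 CPM depending on the library, and 4 of the 6 mice were at or under it. mmu-miR-702-3p was counted 4, 0 and 0 times in sham and 0, 2 and 0 times in stimulated mice and exceeded the floor in mouse 1 alone. Both rows were too low to pass edgeR's filter and no fold is given for them.

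**Figure D4:**
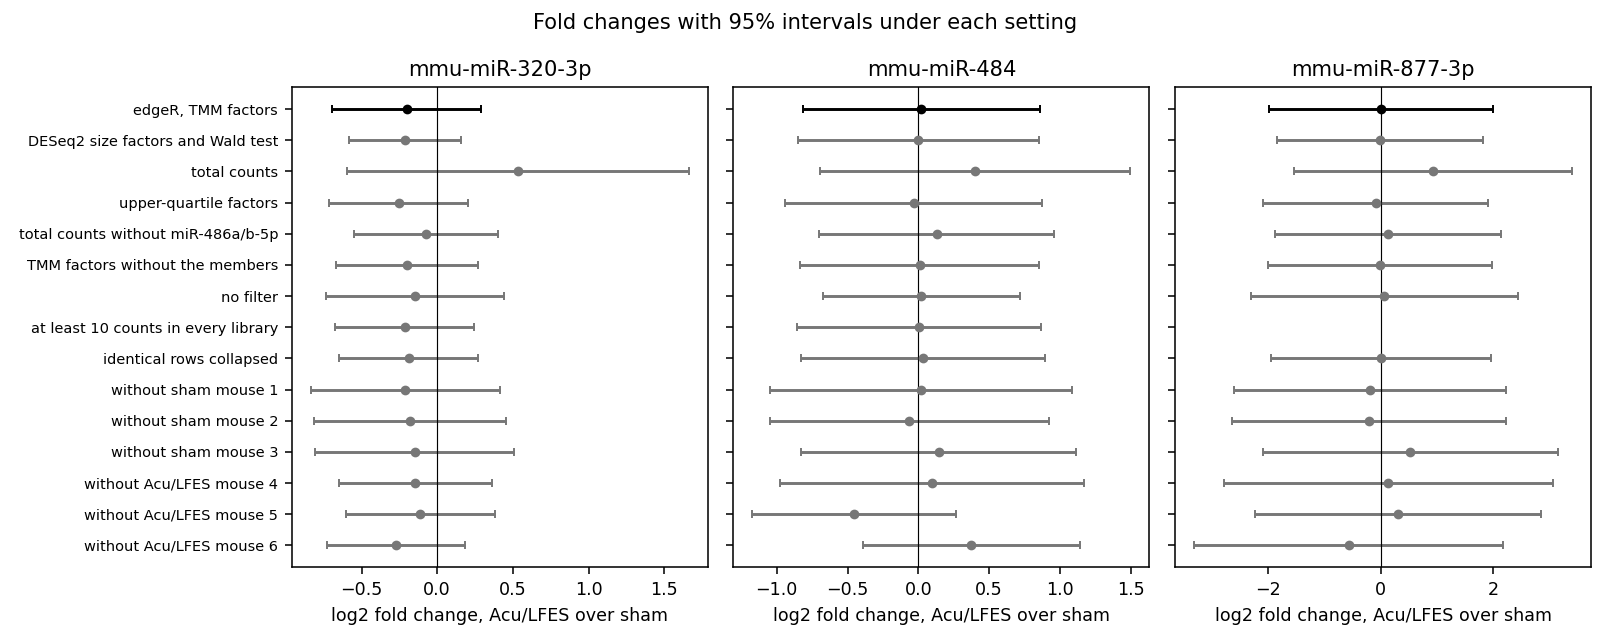
Log2 fold changes of Acu/LFES over sham with 95% intervals for the 3 tested members, from edgeR with TMM factors (black) and under each other setting (grey), on an x axis of its own for each panel. Every interval includes 0, and that of miR-877-3p is the widest, from -1.99 to 1.99 with TMM factors.

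The other strands and further mirtrons were as scarce. miR-320-5p, the strand of the miR-320 hairpin next to the cap, was counted 20, 1 and 5 times in sham and 5, 3 and 29 times in stimulated mice, and miR-702-5p had 1 count in all, in mouse 4. Of the mirtrons miR-1224 and miR-3102, all 6 rows had a count somewhere and 0 had enough to be tested. Summed, they reached 17, 37 and 2 counts after sham treatment and 17, 9 and 41 after Acu/LFES. miR-1224-3p, seen in 5 of the 6 mice, was counted 8, 12 and 2 times in sham and 5, 0 and 13 times in stimulated mice.

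The miRNAs whose pattern over the 6 mice was most like that of miR-320-3p were miR-30d-5p, miR-192-5p and miR-133a-3p. Their root mean square difference from it in centred log2 CPM was 0.10, 0.15 and 0.16, where the median miRNA tested was at 0.69. Those most like miR-484 were miR-3963, miR-139-5p and miR-574-3p, at 0.12, 0.25 and 0.27, where the median was 0.84. miR-3963 rested on few counts, 35, 21 and 17 under sham treatment and 68, 47 and 31 under stimulation. None of the members was among the 3 closest to another. Seen from miR-320-3p, miR-484 was at 0.57, the 104th closest of 258, and miR-877-3p at 0.55, the 99th. Seen from miR-484, miR-320-3p was the 54th closest and miR-877-3p, at 1.00, the 162nd. All these values share the libraries and their scaling.

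Serum vesicles come from several tissues, so marker miRNAs of other cells are given beside the members. The 7 red-cell markers took 64.2% to 76.1% of counts in sham mice and 65.5%, 77.2% and 34.6% in Acu/LFES mice 4, 5 and 6. Of these markers 6 could be tested, and miR-144-3p had 0 counts in every sham mouse. The 6 platelet and white-cell markers took 0.645% to 0.983% of counts in sham and 0.572% to 1.42% in stimulated mice. The liver markers miR-122-5p and miR-192-5p took 0.668% to 1.83% and 0.447% to 3.78%, respectively, and the 4 muscle markers, of which miR-499-5p was at 0 in every sham mouse, took 0.657% to 1.21% and 0.569% to 2.64%. With edgeR and with DESeq2, 0 of the tested markers in each list passed an unadjusted p of 0.05, where 8.88% and 11.2% of all tested miRNAs did. The median log2 fold change in edgeR was 0.25 for the red-cell, -0.37 for the platelet and white-cell, -0.42 for the liver and -0.042 for the muscle markers, where all tested miRNAs had a median of 0.050. The red-cell rows went both ways, as both miR-486 rows, which hold most of the list's counts, were at -0.66 and the other 4 tested rows at 0.15 to 0.54. Mouse 6 had the highest share of counts for platelet and white cells, liver and muscle. In normalized CPM it remained highest for the muscle markers, 12473 against 7490 to 11282. It had, however, the lowest level of the platelet and white-cell markers, 6697 against 7528 to 9935, and the liver markers were highest in sham mouse 3. Their part in the levels of the members was not tested.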

How the data were processed

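The data are serum exosome small RNA libraries of 3 sham and 3 Acu/LFES mice, grouped by sample title. Titles number the samples from 1 to 6 across both groups and therefore give no pairs. What the authors deposited is a table of raw read counts per mature miRNA. The submitters' processing notes name bcl2fastq, cutadapt 1.6 and DESeq2 1.26.0. The aligner, the miRNA annotation and the mismatches allowed, which decide the row a read goes to, are not given in the sources used here. Rows not named as mouse miRNAs (67, with 104 counts in all) were kept.

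These deposited counts went into edgeR 4.0.16 (R 4.3.3), which applied its default filter (minimum count 10), TMM factors and the quasi-likelihood test over 259 miRNAs, with Benjamini-Hochberg adjustment and a threshold of 0.05. Standard errors are Wald errors from the fitted weights and quasi-dispersion. Group differences in 5 ratios and in 1 share were tested with exact two-sided permutation (SciPy 1.17.1). Totals ran from 391708 to 1504137 counts. Exosomes were prepared mouse by mouse according to the study's methods, and p-values measure the spread between these 6 libraries. No pair of libraries agreed within sampling noise.

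The members, lists, ratios and alternatives were chosen with earlier results of these data known. Named miRNAs are the members, the other rows of their hairpins, miR-1224 and miR-3102, the markers and references, and the 3 tested miRNAs closest in pattern to miR-320-3p and to miR-484. Alternatives were DESeq2 1.42.0, other scalings, other filters, merging of identical rows and leaving out each mouse. The edgeR fit was tested on simulated counts. Sequences come from RefSeq (GRCm38.p6) and gene positions from GENCODE M21.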

Additional observations from a re-analysis of the deposited data

How the results depend on the processing

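The sign of the small differences depended on the scaling and on single mice, and no member reached an adjusted p of 0.05 under any alternative that gave one. The adjusted p ranged from 0.680 to 0.999 for miR-320-3p, from 0.683 to 0.999 for miR-484 and from 0.774 to 0.999 for miR-877-3p, for which DESeq2 gave no adjusted p. Scaled to total counts, the log2 fold change was 0.53 for miR-320-3p, 0.40 for miR-484 and 0.93 for miR-877-3p, and over all miRNAs the calls at an unadjusted p under 0.05 were 23 higher and 0 lower, against 15 and 8 with TMM factors. The split was 20 and 6 with total counts less both miR-486 rows, 39 and 14 with no filter, and 9 and 9 where every library had to hold 10 counts, a filter that left miR-877-3p untested. With DESeq2 the fold change was -0.00047 for miR-484 and -0.013 for miR-877-3p, with upper-quartile factors -0.033 and -0.089, and with TMM factors computed without the members that of miR-877-3p was -0.0061.

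Leaving out 1 mouse at a time gave log2 fold changes from -0.45 (without mouse 5) to 0.37 (without mouse 6) for miR-484 and from -0.57 (without mouse 6) to 0.53 (without sham mouse 3) for miR-877-3p. For miR-320-3p they stayed between -0.27 and -0.11. The difference in log2 ratio then ranged from -0.59 to 0.38 for miR-320-3p over miR-484 and from -0.84 to 0.16 for miR-484 over miR-16-5p, and that in the members' share from -0.0468 to 0.572 percentage points. The difference in share was -0.107 per TMM-scaled library and -0.0935 without both miR-486 rows, and that in the log2 ratio of miR-484 was 0.0090 against miR-103-3p. Over all miRNAs, 8 had an adjusted p under 0.05 in DESeq2 where edgeR gave 0, beside 29 and 23 at an unadjusted p under 0.05. The last number was 53 with no filter, which tests more rows, and 19 to 48 with 1 mouse left out, 48 being without sham mouse 1. The cause of the other changes was not tested. miR-877-5p and miR-702-3p fell below the filter on low counts, so their change could not be assessed.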
